A study of Mus musculus with 16 samples.

Results

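Livers were Gadd45b-null (KO) or wild-type (WT). Besides the targeted gene Gadd45b, the 6 transcripts Igsf23, Otog, Phyhip, Gm3893, 2010109A12Rik and Lncbate1 were chosen as strong marks of genotype on these arrays. They were read by 7 of the 41174 probes of the array and are 6 of 19096 genes that could be named through RefSeq accessions. All 7 probes passed the filter on dim probes, which asks that every array of some group be marked by the scanner software as well above background. The genes were chosen by the genotype difference in signal itself, under both treatments for Igsf23, Otog and Phyhip, under DEN for Lncbate1, and under DEN + PB for Gm3893 and 2010109A12Rik. These differences are therefore described without a test. What was tested is the phenobarbital effect, on arrays that also entered the choice, and the genotype difference of the last 3 genes under the other treatment. These 3 passed the filter through WT groups alone, where they were higher, and earlier results of these data were known at the choice. The other treatment is therefore not a fully independent sample for them.

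The genes have no known pathway in common. Igsf23 is a member of the immunoglobulin superfamily, whose proteins carry the folds of antibodies and mostly sit at the cell surface. Otog encodes otogelin, a large secreted protein of the gel-like membranes of the inner ear. Phyhip encodes a protein that binds phytanoyl-CoA hydroxylase, the peroxisomal enzyme that starts the breakdown of branched-chain phytanic acid, and is best known from brain. Lncbate1 is a long non-coding RNA of brown fat, where it acts with the RNA-binding protein hnRNP U. The gene table lists Gm3893 as a transcribed pseudogene and 2010109A12Rik as protein-coding. Gadd45b is a stress-inducible regulator of growth arrest and signalling.

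All mice were male, and at 5 weeks of age each was given 90 mg/kg of diethylnitrosamine (DEN), which starts liver tumours by damaging DNA. In each genotype 4 mice had DEN alone and 4 had DEN + PB, where PB is phenobarbital, which promotes such tumours, at 0.5 g/l in the drinking water from 7 to 57 weeks of age. The liver came from outside tumours at 57 weeks. WT mice were C57BL/6J, while the stock name of the KO line, a germline null allele, names another strain beside B6 and the study's text also places the line on C57BL/6J. The null allele and the strain background around it cannot be told apart in these groups.

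Each mouse had 1 array of 1 colour (Cy3). Arrays had a 75th percentile of 137 to 294 in processed signal and 58.3% to 67.7% of their spots above background by the scanner software's mark. No spot was saturated. Gadd45b was well above background on all 8 WT arrays and on none of the 8 KO arrays by either of its probes. Hepatocyte markers were present throughout, with all 6 of the list (Alb, Apoa1, Ttr, Tat, Cyp3a11 and Cps1) well above background on all 16 arrays. The level of a liver gene here cannot separate fewer cells of a type from less RNA per cell. Below, a signal is the deposited intensity with background removed, and a log2 level is that signal relative to the 75th percentile of its own array.

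Of the members higher in KO, Igsf23 had 2 probes. The signal of probe 1 was 26.5, 27.3, 28.1 and 41.8 in WT DEN and 31.1, 36.3, 84.9 and 25.0 in WT DEN + PB. It was 774, 454, 467 and 773 in KO DEN and 767, 791, 520 and 759 in KO DEN + PB. Every KO array thus lay above every WT array, by 2.77 on the log2 scale at the narrowest point. For comparison, 11.0% of genes tested had KO and WT groups that did not overlap under DEN and 17.3% under DEN + PB. The mean log2 level was -2.84 ± 0.35 (SD, n = 4) in WT DEN and 1.40 ± 0.30 in KO DEN, an 18.9-fold difference, and -2.56 ± 0.62 against 1.93 ± 0.04 under DEN + PB, a 22.5-fold difference.

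Probe 2 of Igsf23 was dimmer but separated the genotypes in the same way. Its signal was 117, 39.96, 76.4 and 124 in KO DEN and 114, 126, 61.8 and 107 in KO DEN + PB. In WT it was 1.37, 4.41, 3.84 and 5.13 under DEN and 4.92, 3.77, 6.31 and 2.15 under DEN + PB. It was well above background on all 8 KO arrays and on 0 of 8 WT arrays, so that the KO level is bounded as at least 15.1-fold higher under DEN and at least 23.8-fold higher under DEN + PB. For such a bound the unmeasured level of a WT array is replaced, unless the probe itself read higher. The substitute is the dimmest signal of any probe marked well above background on that array. A probe can read above that signal and stay unmarked, as Gm3893 did in KO DEN replicate 4 (9.63 beside 7.88). The bounds here and below are therefore approximate.

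**Figure D1:**
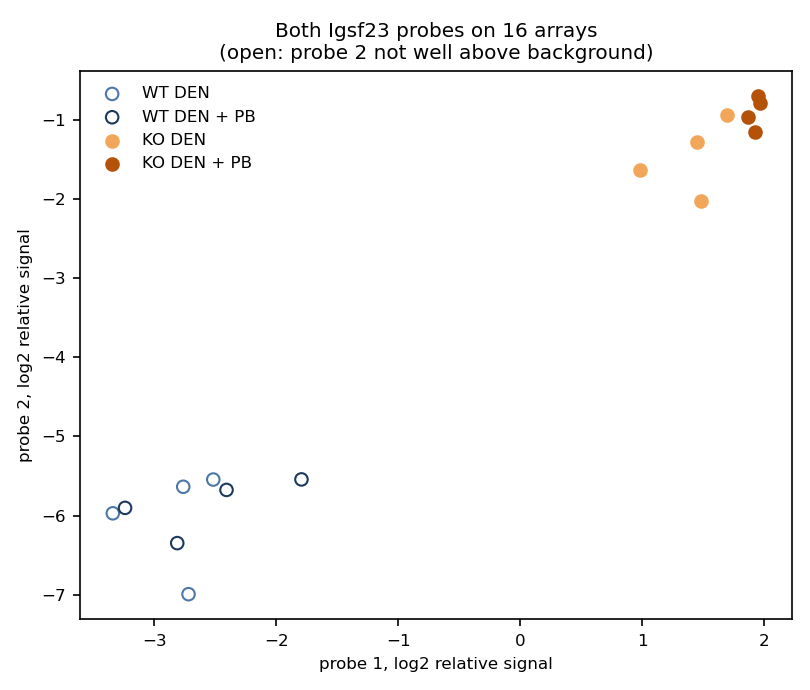
Log2 level, relative to each array's 75th percentile, of Igsf23 probe 1 (x axis) and probe 2 (y axis), 1 point for each of the 16 arrays, coloured by group. The 8 KO arrays lie at the upper right and the 8 WT arrays at the lower left, where probe 2 was not well above background.

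The arrays also ordered alike by both Igsf23 probes within KO, with the treatments pooled, where both were measured. Over the 8 KO arrays Pearson's r was 0.738 (exact permutation p = 0.0336, adjusted over 2 such relations 0.0336) and Spearman's rho was 0.810 (exact permutation p = 0.0218, adjusted 0.0279). Without the 2 arrays farthest from the median of probe 1, r was 0.860 over 6 arrays. Both probes were also higher after PB in KO, by log2 differences of 0.52 and 0.57, neither called. That shift was not removed. These values therefore do not separate it from likeness among arrays of the same treatment. Probe 1 exceeded probe 2 by a log2 gap of 2.61 to 3.51 across the KO arrays, and neither probe carried the genotype difference alone. Igsf23 was the only member with a second probe. For the other 5, a change in the transcript and a change in how its probe hybridises cannot be told apart.

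For the members with a promoter in the RefSeq table of GRCm38.p6 (Igsf23 with 2 start sites, and Otog), the 300 bases from 250 before to 50 after each start are shown, because these genes were higher together in KO. The other 4 members had no entry. Capitals mark matches, on either strand, to any of 6 motifs: the TATA box (TATAAA), the CCAAT box, the GC box (GGGCGG), the core of nuclear receptor sites (AGGTCA), this core repeated in the same direction with any 1 base between, and the E box (CACGTG). They were a choice made after the sequences had been read. The regions are chr7:19953605-19953904 and chr7:19950694-19950993, both on the minus strand, for Igsf23, and chr7:46240737-46241036 on the plus strand for Otog.
Igsf23 start 1: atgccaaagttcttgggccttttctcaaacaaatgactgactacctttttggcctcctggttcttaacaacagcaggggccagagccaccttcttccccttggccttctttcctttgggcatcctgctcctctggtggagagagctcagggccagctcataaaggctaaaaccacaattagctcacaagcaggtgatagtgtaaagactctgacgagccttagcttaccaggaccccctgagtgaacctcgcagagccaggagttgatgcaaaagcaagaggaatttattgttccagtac
Igsf23 start 2: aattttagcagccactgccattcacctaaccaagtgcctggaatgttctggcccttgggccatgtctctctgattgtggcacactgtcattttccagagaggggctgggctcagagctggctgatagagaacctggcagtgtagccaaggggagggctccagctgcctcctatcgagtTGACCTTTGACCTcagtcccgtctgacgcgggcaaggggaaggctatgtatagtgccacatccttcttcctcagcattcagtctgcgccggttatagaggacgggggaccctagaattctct
Otog: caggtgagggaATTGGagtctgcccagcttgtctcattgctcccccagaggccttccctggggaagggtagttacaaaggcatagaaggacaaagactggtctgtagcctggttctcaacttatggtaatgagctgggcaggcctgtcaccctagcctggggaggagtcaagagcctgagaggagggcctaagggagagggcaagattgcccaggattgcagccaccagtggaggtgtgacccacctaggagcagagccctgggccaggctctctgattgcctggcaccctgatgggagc

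The second start of Igsf23 held the nuclear receptor core 2 times, the first at -72 from the start, and both matches together form 1 direct repeat with a single base between. Several nuclear receptors of the liver are known to bind such repeats. It was in 13 of 32851 promoters of the table (0.0396%), and the core by itself was in 16.3%. The Otog window held 1 CCAAT, a motif found in 37.4% of promoters, and the first Igsf23 start held none of the 6 motifs. The TATA box was in 13.6% of promoters, the GC box in 35.7% and the E box in 7.15%. The probes do not say which start site was used, and a match in these letters is a description only.

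Otog was measured on all 16 arrays by its only probe. Its signal was 16.6, 14.2, 21.4 and 17.6 in WT DEN and 24.0, 15.4, 18.8 and 12.8 in WT DEN + PB. In KO it was 269, 135, 539 and 349 under DEN and 187, 360, 319 and 142 under DEN + PB. The genotypes did not overlap, and KO arrays varied more among themselves than WT arrays did (SD of the log2 level 0.66 under DEN and 0.81 under DEN + PB, against 0.49 and 0.16). The KO mean was 15.98-fold the WT mean under DEN and 17.2-fold under DEN + PB.

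Phyhip was a dim gene that was measured in KO and mostly not in WT. Its signal was 26.5, 22.1, 28.0 and 34.6 in KO DEN and 26.7, 33.2, 23.8 and 37.6 in KO DEN + PB. In WT DEN it was 1.08, 1.76, 3.85 and 1.22, with none of the 4 well above background, which bounds KO as at least 5.09-fold higher. In WT DEN + PB it was 0.962, 1.11, 9.94 and 1.49, and replicate 3 alone was well above background, so no fold is given. The mean log2 levels there were -6.87 ± 1.44 in WT and -2.62 ± 0.18 in KO.

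WT DEN + PB replicate 3 also had the highest WT signal of both Igsf23 probes. It shared its slide with 3 KO arrays and no other WT array. Its signals stayed under every KO array for each of these probes. Within that slide KO still exceeded it under DEN + PB by a log2 difference of 3.72 for Igsf23 probe 1 and 2.37 for Phyhip.

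**Figure D2:**
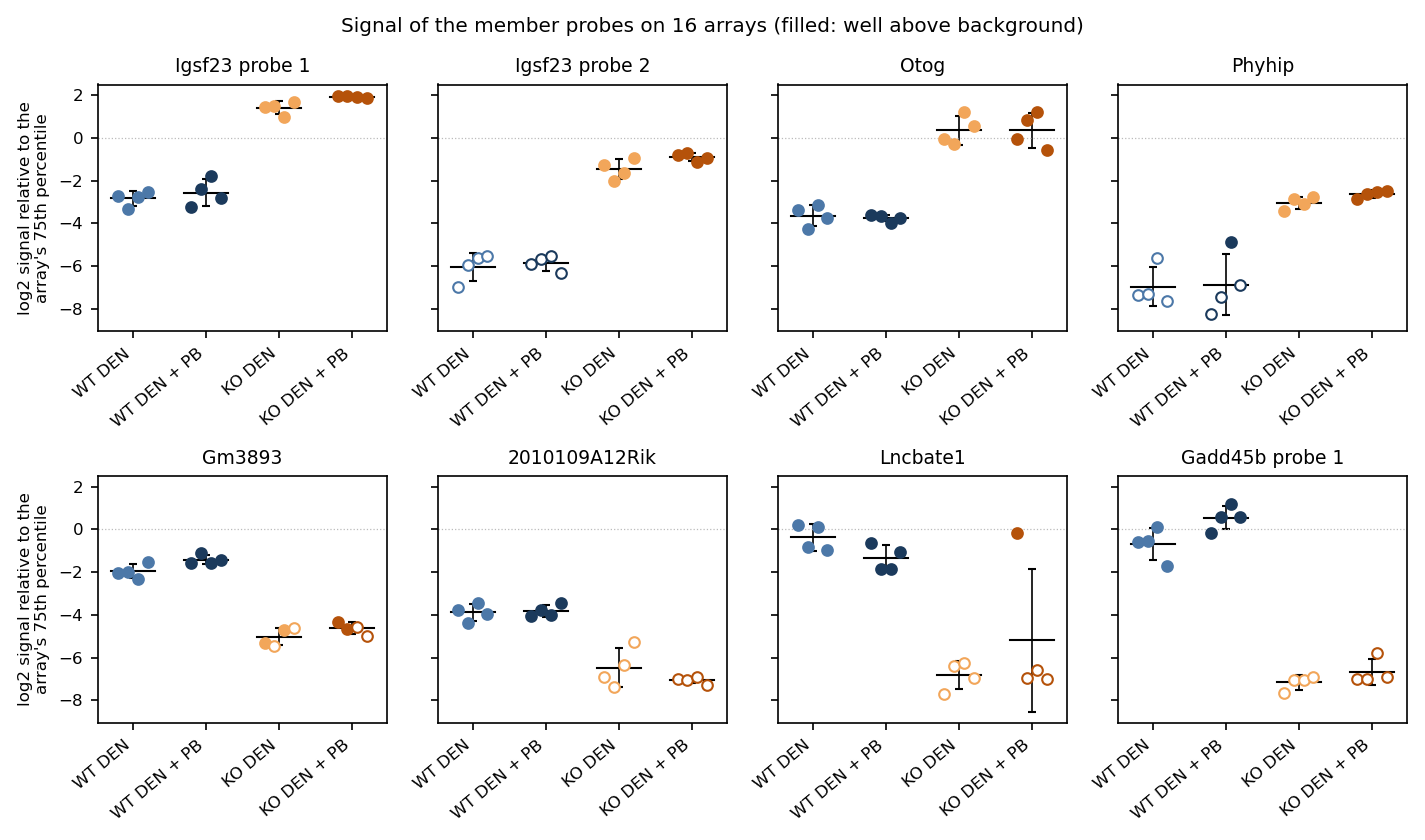
Log2 level (y axis, relative to each array's 75th percentile) of the 7 member probes and of Gadd45b probe 1 in the 4 groups, 1 point per array, with the mean and SD of each group of 4. Filled points were well above background. Igsf23, Otog and Phyhip lie higher in all KO arrays, Gm3893 and 2010109A12Rik lower in all, and 1 KO DEN + PB array has Lncbate1 at the WT level.

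Among the members lower in KO, Gm3893 was measured on all 8 WT arrays. Its signal was 42.0, 69.8, 38.5 and 83.9 in WT DEN and 99.6, 89.0, 99.2 and 63.8 in WT DEN + PB. In KO it was 7.15, 3.75, 8.92 and 9.63 under DEN and 9.80, 7.97, 5.83 and 6.54 under DEN + PB, with 2 of 4 arrays well above background in each group. The DEN arrays had not chosen the gene. It passed the filter through the WT groups, where it was high, so they are not a fully independent sample for it. On the DEN arrays the log2 level was lower in KO by a difference of -3.06 ± 0.22 (SE, limma adjusted p = 6.42e-07). The exact permutation test of 4 against 4 arrays gave a two-sided p = 0.0286, the smallest that 70 assignments allow. No fold is given, since only part of the KO DEN group was well above background. With normexp background correction the difference was -1.08 and the call was lost (adjusted p = 0.162). Under DEN + PB, where it was chosen, the difference was -3.21.

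2010109A12Rik was dim in WT and not measured in KO. Its signal was 12.8, 13.2, 17.5 and 15.4 in WT DEN and 17.6, 14.3, 18.1 and 16.1 in WT DEN + PB. In KO it was 2.38, 0.978, 2.95 and 6.12 under DEN and 1.52, 1.55, 1.14 and 1.35 under DEN + PB. All 8 WT arrays and 0 of 8 KO arrays were well above background. The DEN arrays had not chosen it but, as for Gm3893, are not a fully independent sample. On them KO was at least 2.55-fold lower (fitted log2 difference -2.58 ± 0.33, limma adjusted p = 0.000601, exact permutation p = 0.0286). Under DEN + PB the bound was at least 2.18-fold lower. With normexp the DEN difference was -0.74 and the call was lost (adjusted p = 0.670).

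Some leukocyte markers were lower in KO, as 2010109A12Rik was. Under DEN + PB 4 of the 5 tested markers of a list of 6 were called lower in KO (Ptprc, Adgre1, Lyz2 and Itgam), and under DEN 1 was (Adgre1). Over all genes tested 5.85% were called lower under DEN + PB and 1.74% under DEN. The 5th tested marker, Cd3e, went the other way (0.18 under DEN and 0.37 under DEN + PB, not called), as did Itgam under DEN (0.24, not called). In WT the summed level of the 5 tested markers was 5.83 to 16.9 under DEN and 6.46 to 11.3 under DEN + PB. In KO it was 2.72 to 3.69 under DEN and 2.21 to 2.95 under DEN + PB, each relative to the 75th percentile. Adgre1 was the brightest of them, with a mean log2 level of 2.46 in WT DEN beside 0.67 for Ptprc. Of the list, Cd79a was well above background on 4 arrays only and was not tested. The part of these cells in the difference was not tested.

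Lncbate1 was the member with an array against the rest of its group. Its signal was 202, 154, 205 and 122 in WT DEN and 188, 53.7, 82.4 and 84.3 in WT DEN + PB. In KO DEN it was 1.36, 1.92, 3.09 and 1.94, none well above background, which bounds KO as at least 29.1-fold lower under DEN, the treatment that chose it. In KO DEN + PB it was 173, 1.62, 1.44 and 1.62. Replicate 1 thus lay within the WT range and 3 arrays lay at background.

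The DEN + PB arrays had not chosen Lncbate1. It also passed the filter through the WT groups alone, so they are not a fully independent sample for it. On them the difference was -3.84 ± 1.08 (SE) and just past the threshold (limma adjusted p = 0.0406). The groups overlapped and the exact permutation test did not pass (p = 0.143). The adjusted p ranged from 1.08e-06 to 0.599 over the alternatives. The call was lost in 11 of the 16 fits that left out 1 array. Without KO DEN + PB replicate 1 the difference was -5.51 (adjusted p = 1.08e-06), and within slides it ran from -6.33 to 0.87, the last on the slide of that array. The same array was KO by Gadd45b probe 1, with a signal of 1.52. Its signal was 767 for Igsf23 probe 1, 187 for Otog, 26.7 for Phyhip, 9.80 for Gm3893 and 1.52 for 2010109A12Rik. These members were chosen on the DEN + PB arrays, this array among them, so their KO levels on it do not test its genotype. The slide of this array held 3 WT arrays and no other KO array, and the part of the slide was not tested.

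By size of the fitted difference among the 13304 genes tested (1 probe per gene, the brightest), the members stood near the top under either treatment. Under DEN the ranks were 2 for Lncbate1, 3 for Igsf23, 7 for Otog, 8 for Phyhip, 14 for Gm3893 and 22 for 2010109A12Rik. Under DEN + PB they were 2 for Igsf23, 3 for Phyhip, 4 for Otog, 5 for Lncbate1, 8 for 2010109A12Rik and 9 for Gm3893. Gadd45b was first under both. The 8 KO arrays did not overlap the 8 WT arrays for 5 of the 6 members and for 3.16% of all genes tested, a count that the choice of the members fixes. High ranks are likewise favoured by the choice, which used the genotype difference itself. A rank that rests on signals near background is not a measured size.

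Phenobarbital was then examined within each genotype. None of the 6 members passed the test of DEN + PB against DEN in WT, where 0.737% of all genes tested were called, nor in KO, where 2.13% were. By limma without adjustment, 1 member had a p under 0.05 in WT and 0 did in KO, with 4 arrays in each group.

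In WT, Gm3893 had a log2 difference of 0.54 (95% interval 0.08 to 1.00, limma adjusted p = 0.545, exact permutation p = 0.0857) and overlapping groups. Lncbate1 differed by -0.97 (interval -3.25 to 1.31). Igsf23 probe 1 differed by 0.27 (-0.27 to 0.82), Otog by -0.10 (-0.88 to 0.69) and 2010109A12Rik by 0.07 (-0.63 to 0.77). All 6 members had overlapping groups here, while 5.16% of genes tested had groups that did not overlap. The interval of Lncbate1 spans more than that of any other member. The fit shares 1 spread over the 4 groups. For Lncbate1 the SD was 3.34 in KO DEN + PB, 0.62 in WT DEN and 0.59 in WT DEN + PB. Its width in WT therefore does not reflect the WT arrays alone.

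In KO, Igsf23 probe 1 was higher after PB on all 4 arrays than on any DEN array, by 0.52 (interval -0.02 to 1.07). Its exact permutation p was the smallest the design allows (0.0286), but the difference did not pass over all probes (limma adjusted p = 0.437), and 8.60% of genes tested had groups that did not overlap in this contrast. Probe 2 gave 0.57 (-0.06 to 1.19) with overlapping groups (exact permutation p = 0.0857). Otog differed by 0.00 (-0.78 to 0.79) and Phyhip by 0.42 (-0.72 to 1.55). Lncbate1 differed by 1.64 (-0.64 to 3.92) through replicate 1, and by -0.03 without it.

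**Figure D3:**
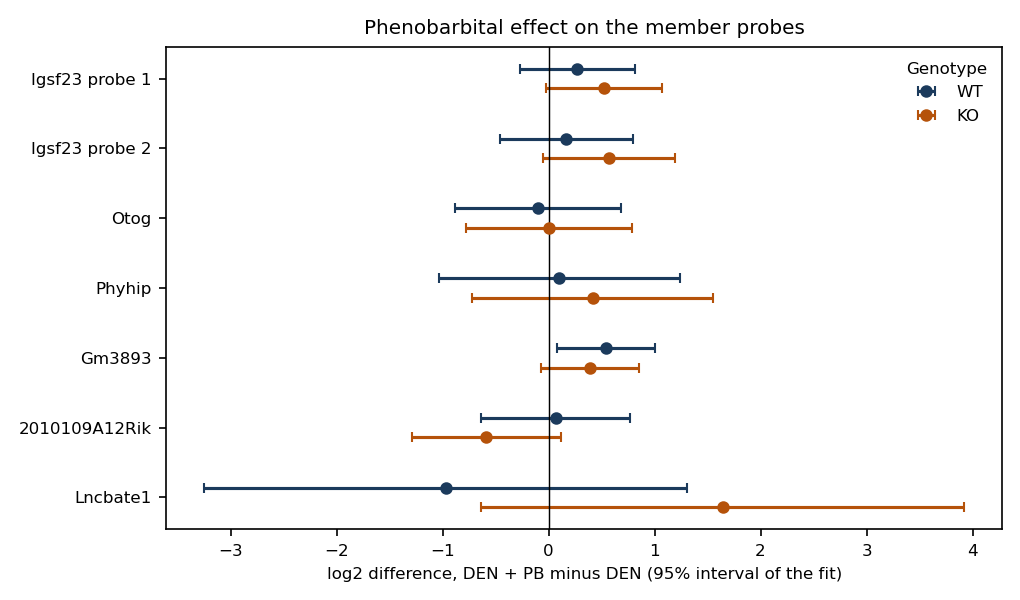
Log2 difference of DEN + PB minus DEN (x axis) for each member probe in WT and in KO, with the 95% interval of the fit, n = 4 arrays per group. Of the 14 intervals, that of Gm3893 in WT excludes 0 (0.08 to 1.00), and none passed after adjustment over all probes.

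The PB effect did not differ detectably between genotypes for any member. The interaction, the PB effect in WT minus that in KO, was called for 0 of 6 members and for 0.00% of the genes tested, and 0 members had an unadjusted p under 0.05 by limma. Its estimates ran from -2.61 (interval -5.83 to 0.61) for Lncbate1 to 0.66 (-0.34 to 1.65) for 2010109A12Rik. Gadd45b itself was higher after PB in WT by 1.22 (0.44 to 1.99) by probe 1 and 1.47 (0.44 to 2.49) by probe 2, neither past the threshold (adjusted p = 0.239 and 0.324).

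The genes that lie beside each member were examined next, to see how far along the chromosome the genotype difference went. In the gene table no member lay on the chromosome of Gadd45b, and 2 members, Igsf23 and Otog, shared a chromosome. Among the 5 nearest tested genes on each side of the 6 members, 3 of 60 were called under DEN (5.00%, all lower in KO), where 2.76% of all genes tested were (1.02% higher and 1.74% lower). Under DEN + PB 8 of 60 were called (13.3%, 3 higher and 5 lower), against 7.61% of all genes (1.76% higher and 5.85% lower). In the alternative fits the counts were taken over 70 neighbours, those of Gadd45b included. Both counts were 0 with normexp, and the DEN count ran from 1 (without WT DEN replicate 1) to 5 when 1 array was left out. The share of all genes called in those fits is not given, so these counts cannot be set beside it. The median log2 difference of the neighbours was -0.04 under DEN and -0.02 under DEN + PB, beside -0.04 and 0.03 over all genes. None of the 10 neighbours of Gadd45b was called under either treatment.

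The neighbour with the largest difference was Syngr4, a synaptogyrin, the 5th tested gene before Otog. Its signal was 64.97, 39.1 and 50.7 on the 3 WT DEN arrays that entered the fit (replicate 2 was dropped for an outlier mark) and 26.7, 39.4, 36.7 and 32.1 in WT DEN + PB. It was 6.90, 7.16, 13.6 and 11.5 in KO DEN and 11.0, 8.61, 9.51 and 6.79 in KO DEN + PB. All 8 KO arrays lay below the 7 WT arrays, with a log2 difference of -2.61 ± 0.35 under DEN (adjusted p = 0.00133) and -1.58 ± 0.33 under DEN + PB (adjusted p = 0.00857), so Syngr4 fell in KO where Otog was higher.

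The other called neighbours differed less, with limma adjusted p between 0.000839 and 0.0371. Around Otog, Emp3 was lower (-0.97) and Saa4, an apolipoprotein of the serum amyloid A family, was higher (0.79) under DEN + PB. Around Phyhip, Pdlim2 was lower under both treatments (-0.75 and -1.17) and its nearest tested gene before it, Polr3d, a subunit of RNA polymerase III, was higher under DEN + PB (0.72). Cblc, which encodes a ubiquitin ligase, was higher near Igsf23 (0.87), the chemokine Ccl19 lower near Gm3893 (-0.92) and Septin11 lower near 2010109A12Rik (-0.67), each under DEN + PB, and Stbd1, a glycogen-binding protein, was lower near 2010109A12Rik under DEN (-0.97). None of the 10 neighbours of Lncbate1 was called, with differences of -0.28 to 0.61 under DEN.

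**Figure D4:**
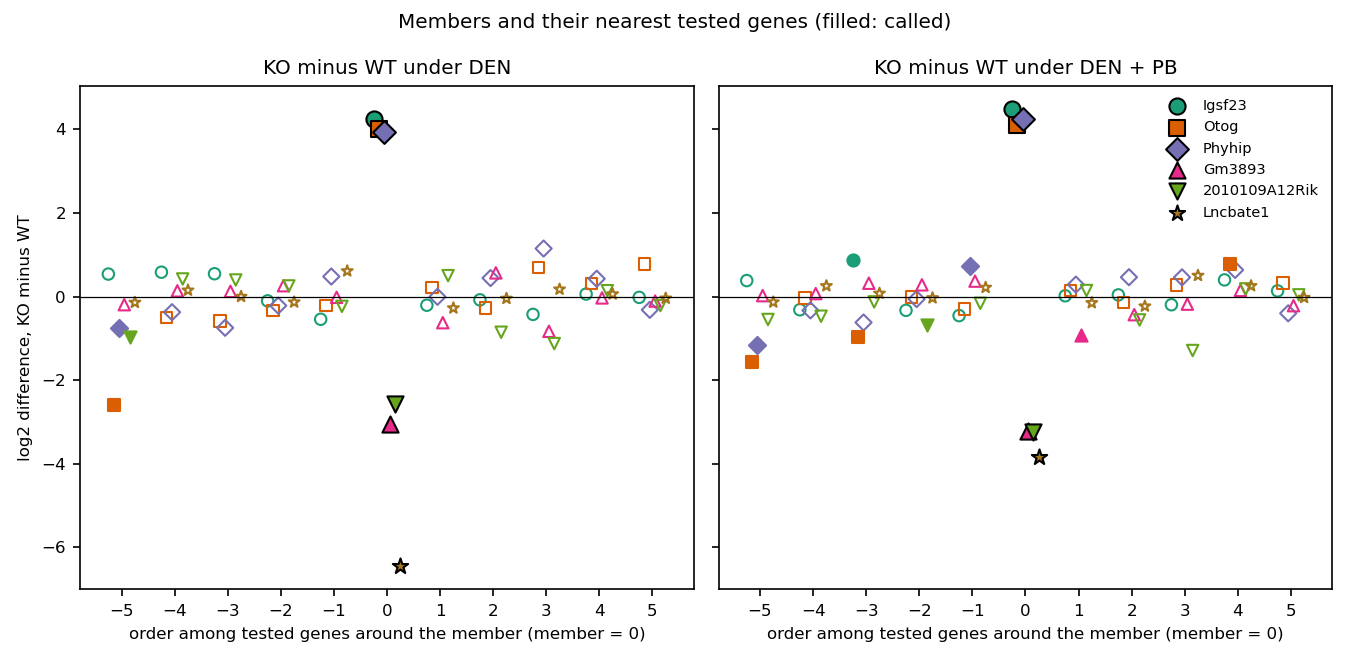
Log2 difference of KO minus WT (y axis) under DEN and under DEN + PB for each member (black outline, position 0) and the 5 tested genes on each side in the order of the gene table (x axis), 1 marker shape per locus. Filled neighbours were called, 3 of 60 under DEN and 8 of 60 under DEN + PB, and Syngr4 at position -5 of Otog is the lowest neighbour at -2.61.

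Polr3d and Bmp1 flank Phyhip, and Bmp1, a procollagen protease with no gene of the table in between, differed by -0.01 under DEN and 0.29 under DEN + PB by its brighter probe. Nomo1 (-0.22 and -0.30) and Sergef (0.22 and 0.15) flank Otog, Ccl27a (-0.02 and 0.37) and Ccl19 flank Gm3893, Ccni (-0.24 and -0.16) and Ccng2 (0.50 and 0.14) flank 2010109A12Rik, and Zfhx3 (0.61 and 0.22) and Gm1943 (-0.28 and -0.15) flank Lncbate1. None of these differences passed the test except those of Polr3d and Ccl19 under DEN + PB. A dimmer 2nd probe of Bmp1 differed by 0.29 under DEN. Under DEN + PB it was higher in KO by 0.70, past the threshold (limma adjusted p = 0.0295). Between Gm3893 and its nearest tested genes lay 15 and 29 untested genes of the table, so that locus is sparsely sampled. Other loci are sparse further out. The 2nd to 5th tested genes after Igsf23 had 183 to 190 genes of the table in between. The 3rd to 5th after 2010109A12Rik had 48 to 52.

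Probes of one neighbour did not always go the same way. Pvr, a cell adhesion receptor next to Igsf23, had 4 tested probes. The brightest differed by -0.54 under DEN (adjusted p = 0.169), while the third was higher in KO by 0.93 (adjusted p = 0.0211) and under DEN + PB by 0.86 (adjusted p = 0.0168). Ceacam20, on the other side of Igsf23, had 1 probe and differed by -0.21 and 0.02. A second probe of Zfhx3 was higher in KO under DEN (0.96, adjusted p = 0.0388) beside 0.61 for its brightest.

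Relatives and partners of the members showed no shared difference. In a list of 12 genes of the Igsf and Ceacam families and their kin, 8 were tested and 0 were called in KO against WT under either treatment. Their median log2 difference was 0.23 under DEN and 0.07 under DEN + PB. The cell adhesion receptors Ceacam1 (0.28 and 0.29) and Nectin2 (0.54 and 0.38) were among them. Of 11 genes of phytanic acid breakdown and of Phyhip's partners, 10 were tested and 0 called, and Phyh, the hydroxylase itself, differed by -0.13 and 0.28. Of 10 relatives of otogelin and inner ear matrix genes only Muc5ac and Vwf were tested, and neither was called. Of the other 5 on the array, Tecta, Otoa, Muc2 and Muc5b were well above background on 0 of 16 arrays, and Tectb on 10, too few in any group to be tested. None of the tested genes of these 3 lists was called for PB in WT or in KO.

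In the brown fat list 1 gene, Cidea, was lower in KO under both treatments. Of the 14 genes 9 were tested and 1 was called under each treatment, where 2.76% of all genes tested were called under DEN and 7.61% under DEN + PB. Cidea encodes a protein of lipid droplets that brown fat and fatty liver express. Its signal was 16312, 6381, 19491 and 12321 in WT DEN and 15203, 4913, 4787 and 16679 in WT DEN + PB. It was 774, 173, 1439 and 1291 in KO DEN and 1994, 817, 1284 and 1301 in KO DEN + PB, below all WT arrays. The log2 difference was -4.21 ± 0.62 under DEN (adjusted p = 0.00199) and -2.44 ± 0.62 under DEN + PB (adjusted p = 0.0242).

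On the KO DEN + PB array with Lncbate1 at the WT level, Cidea (1994) was below every WT array but was the highest of the KO arrays. Of the 5 adipocyte markers, Ucp1, which defines brown fat, Plin1 and Lep were well above background on 0 of 16 arrays and Adipoq on 1. Fabp4, which macrophages and endothelial cells also express, was well above background on all 16 and was not called (0.17 and -0.51). Hnrnpu, the partner of Lncbate1, differed by 0.16 and 0.10. The list's median difference was 0.04 under DEN and -0.06 under DEN + PB.

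No list of other cell types held a gene called higher in KO under DEN. Under DEN + PB, 3 of 5 cholangiocyte markers (Krt19, Krt7 and Epcam), 4 of 5 tested leukocyte markers, 1 of 5 endothelial markers (Pecam1, also lower under DEN) and 1 of 5 stellate markers (Lrat) were lower in KO, and the hepatocyte gene Tat was higher (0.67). Krt19 and Krt7 were called higher after PB in WT (1.27 and 1.16) and not called for PB in KO. Under DEN, KO minus WT was 0.55 for Krt19, 0.23 for Krt7 and -0.41 for Epcam, none called. Over all genes tested 5.85% were called lower and 1.76% higher under DEN + PB, and nothing is read from the lists with 1 call. Of the neural and pancreatic acinar markers tested, 3 and 2, none was called. Their part in the levels of the members was not tested.

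The genes whose level over the 16 arrays most resembled that of each member were then named by Pearson's r. These r values are set largely by the gap between the genotypes and are given as a measure of likeness, without a test. For Igsf23 they were Arsk (0.978), Wdfy1 (0.968) and Phyhip (0.960), and for Otog they were Arsk (0.973), Wdfy1 (0.957) and Ccdc57 (0.955). For Phyhip they were Igsf23 (0.960), Arsk (0.929) and Uba6 (0.914). Arsk encodes a lysosomal sulfatase and Uba6 a ubiquitin-activating enzyme.

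For Gm3893 the likest genes were Gadd45b (0.970), Pla2g4a, a phospholipase (0.941), and 2010109A12Rik (0.938). For 2010109A12Rik they were Cd68 (0.969), a lysosomal protein of macrophages, Slc37a2 (0.966) and Cd300a (0.958), an inhibitory receptor of myeloid cells. For Lncbate1 they were Ear1 (0.881), an eosinophil-type ribonuclease, Rnf4 (0.876) and Cd86 (0.874), a costimulatory receptor of antigen-presenting cells.

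Inside one genotype r was lower than over all 16 arrays for each of these pairs, by amounts that varied. It ran from -0.34 to 0.65 over the 8 WT arrays and from 0.19 to 0.96 over the 8 KO arrays. Igsf23 and Arsk had r = -0.06 over the 8 WT arrays and 0.23 over the 8 KO arrays, and Otog and Wdfy1 had -0.16 and 0.24. 2010109A12Rik kept r = 0.36, 0.60 and 0.60 in WT with Cd68, Slc37a2 and Cd300a, and 0.78, 0.96 and 0.83 in KO, where its own probe was not well above background. Phyhip and Igsf23 had 0.65 in WT, where Phyhip was measured on 1 of 8 arrays, and 0.67 in KO. Otog and Ccdc57 had 0.61 in WT and 0.69 in KO. Phyhip with Uba6 and Gm3893 with Pla2g4a had 0.05 and -0.19 in WT but 0.70 and 0.72 in KO. Lncbate1 had 0.48, 0.49 and 0.13 in WT with Ear1, Rnf4 and Cd86, and 0.65, 0.70 and 0.64 in KO, where 1 of 8 arrays measured it above background.

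**Figure D5:**
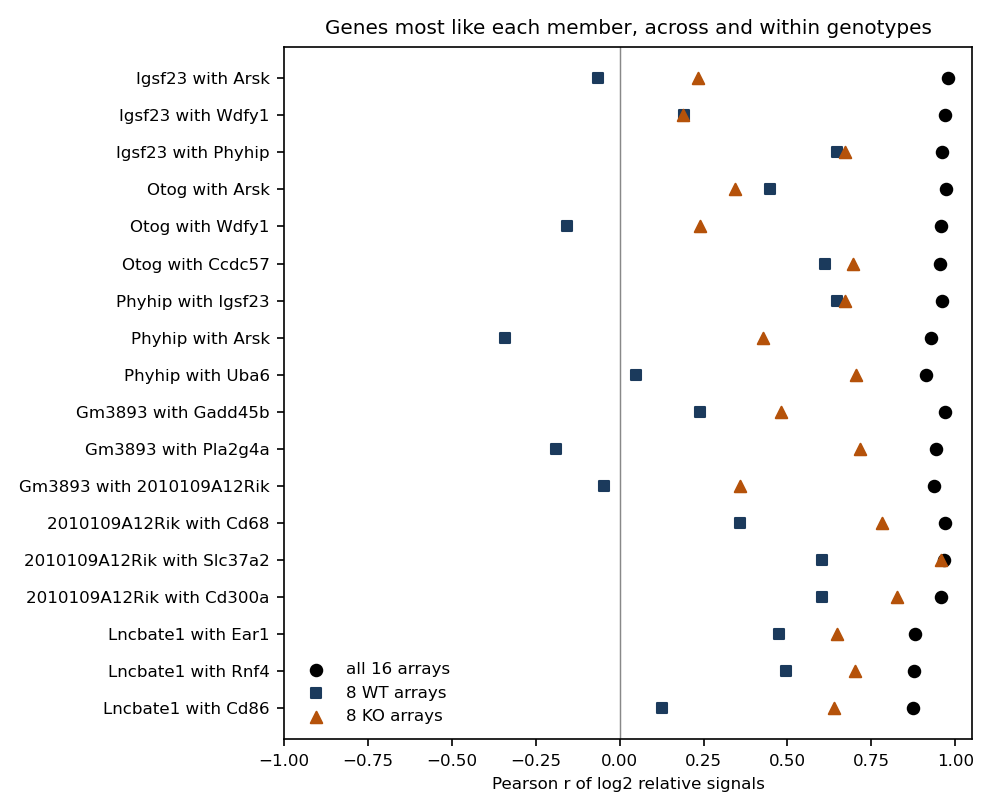
Pearson's r (x axis) of the log2 level of each member with the 3 genes most like it, over all 16 arrays, over the 8 WT arrays and over the 8 KO arrays. Over all arrays r is 0.874 to 0.978, while within a genotype it spreads from -0.34 for Phyhip with Arsk in WT to 0.96 for 2010109A12Rik with Slc37a2 in KO.

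These genes were also where probes of one gene contradicted each other. Arsk probe 1 had a signal of 37.9 to 57.1 in WT DEN and 114 to 180 in KO DEN, a log2 difference of 1.63 ± 0.12 (adjusted p = 8.22e-07), whereas Arsk probe 2 had 70.1 to 144 in WT DEN and 10.3 to 23.9 in KO DEN, a difference of -2.62 ± 0.39 (adjusted p = 0.00236). Under DEN + PB the differences were 1.77 and -3.34. Of 3 Wdfy1 probes, 2 were higher in KO by 2.15 and 2.48 under DEN, while the third differed by -0.47 (adjusted p = 0.206) and fell by 0.70 under DEN + PB (adjusted p = 0.0487). For some other like genes the dimmer probe went the other way without a call. Under DEN Cd300a differed by -1.14 and 0.60, Rnf4 by -0.56 and 0.41, and Uba6 by 0.67 and -0.09. Both tested probes of Pla2g4a, Slc37a2 and Cd86 were lower in KO.

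Among all 4687 genes with at least 2 tested probes, 257 had a probe called under DEN, and Arsk alone had probes called in both directions (0.389%). Under DEN + PB there were 496 such genes with 3 called in both directions, Arsk, Wdfy1 and Vstm4. For PB in WT and in KO, 36 and 107 genes had a called probe and 0 had probes called both ways. Genes with every tested probe called one way, Igsf23 among them, made up 10.9% of those with a called probe under DEN and 25.0% under DEN + PB. These counts were looked at after the values of Arsk had been seen.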

How the data were processed

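RNA of 16 livers was hybridised to 16 Agilent whole mouse genome arrays (1 colour). The authors' deposited intensity values are processed signals from Feature Extraction 12.0.3.1, with background removed and no scaling between arrays. Spots with an outlier mark were left out, repeat spots averaged, and the log2 of the deposited signal taken relative to the array's 75th percentile. Of 41174 probes 24454 were tested. RefSeq names came from a gene table of GRCm38.p6, used for names and gene order only, since the arrays were annotated on mm9; promoters carry its coordinates. The files hold no probe sequences. A gene is read by its brightest tested probe.

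Models with 4 group means were fitted with limma 3.58.1 (R 4.3.3) and tested on simulated data. A call needs a Benjamini-Hochberg adjusted p under 0.05 over all probes tested and a 1.5-fold difference. The members and lists were chosen with earlier results of these data known. Named genes are the members, Gadd45b, the 3 genes most like each member, the nearest tested and the called neighbours, and list genes. Alternatives were normexp (default or maximum likelihood, offset 50, on median signals), quantile or another percentile scaling, the unscaled series table, no or a stricter filter, outlier spots kept, only the arrays compared, no moderation, slide or replicate number as a block, and each array left out. Arrays lay on 4 slides, with 1 scan date. Each array is a separate mouse, and their number limits the precision.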

Additional observations from a re-analysis of the deposited data

Results flagged for a closer look

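Of 36 groups of 4 arrays examined for a single array far from the other 3, 4 stood out by the gap to the nearest array as a share of the group's range (above Dixon's critical value), where chance alone marks about 5%. The KO DEN + PB replicate 1 array had Lncbate1 at a log2 level of -0.19 beside -7.01 to -6.57 on the other 3 (gap share 0.937). It was well above background there and not on the other 3. The WT DEN replicate 3 array had Phyhip at -5.63 beside -7.61 to -7.29 (0.839), with none of the 4 well above background. Gadd45b probe 1 was at -7.67 in KO DEN replicate 1 beside -7.03 to -6.92 (0.855) and at -5.79 in KO DEN + PB replicate 3 beside -7.02 to -6.93 (0.926), in both cases below background.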

How the results depend on the processing

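No member's genotype difference, called or described, changed sign under the 13 alternatives or the 16 fits that each left out 1 array. Normexp adds an offset of 50 to every signal, which exceeds most of the dim members' signals, and gave the smallest differences. Under its default fit and its maximum likelihood fit Gm3893 under DEN was -1.08 in each (adjusted p = 0.162 and 0.164), 2010109A12Rik under DEN -0.74 and -0.73 (0.670 and 0.676) and Lncbate1 under DEN + PB -0.79 in each (0.595 and 0.599), and no neighbour (0 in each) was called under DEN or under DEN + PB. The descriptive differences shrank too, for example to 2.53 for Igsf23 probe 1, 1.69 for Otog and 0.03 for Phyhip under DEN.

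The call of Lncbate1 under DEN + PB was lost, with the difference at -3.84, without the filter (adjusted p = 0.0951), with only the arrays compared (0.116), without moderation (0.0966) and with slide as a fixed (0.0504) or random block (0.0557). With 1 array left out it ran from -5.51 to -3.23, and 11 of the 16 fits lost the call (adjusted p up to 0.133), the exceptions being those without WT DEN replicate 3, KO DEN replicates 1, 2 or 3, or KO DEN + PB replicate 1. Gm3893 ran from -3.19 to -2.91 and 2010109A12Rik from -2.98 to -2.28, both called in all 16. Neighbours called under DEN numbered 5 with quantile scaling, with the percentile over probes well above background and with slide as a random block, and 1 with the series table, without the filter and with slide as a fixed block. With 1 array left out their number was 1 to 5 under DEN, lowest without WT DEN replicate 1 and highest without replicate 4 of WT DEN or of WT DEN + PB, and 6 to 10 under DEN + PB. The share of all genes called in the alternative fits is not given beside these counts. Members called for PB or for the interaction stayed at 0 throughout.

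The replicate numbers did not pair the arrays: deviations of same-numbered arrays correlated with r between -0.213 and 0.356, over 0.1 in 6 of 24 pairs. With the replicate number as a block, Lncbate1 under DEN + PB stayed at -3.84 (adjusted p = 0.0355), 3 neighbours were called under DEN and 6 under DEN + PB, and no call of a member changed. Dim signal limits the sizes given: 2010109A12Rik was well above background on 0 of 8 KO arrays, Lncbate1 on 1 of 8 KO arrays, Gm3893 on 4 of 8 KO arrays and Phyhip on 1 of 8 WT arrays.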
